A study of Mus musculus with 9 samples.

Results

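The integrated and unfolded protein stress responses were followed through 10 genes in RNA sequencing of mouse hippocampus. The genes were taken by name from the deposited table after its transcripts were summed, and all 10 were among the 38911 genes in it. They are 5 chaperones of the endoplasmic reticulum (ER), Hspa5, Hsp90b1, Calr, Pdia4 and Pdia6, and 5 genes of the Atf4-Chop branch, Atf3, Ddit3, Trib3, Chac1 and Sesn2. The study used adult BALB/c mice kept free of specific pathogens, 9 in all, assigned at random to 3 groups of 3. One group had sepsis induced by ligating and puncturing the cecum (CLP, a surgical model in which gut contents leak into the abdomen) with a flavonoid preparation of Cuscuta chinensis at 200 mg/kg. A further group had CLP alone, and the remaining group had a sham operation, so no mouse went without surgery. No source used here gives the sex of the mice, the time after surgery or the route of the preparation.

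When unfolded proteins build up in the ER, the sensors Ire1 (gene Ern1), Atf6 and Perk (gene Eif2ak3) are switched on. Atf6 and spliced Xbp1 raise genes of folding and degradation, many of them through an ER stress element in the promoter. Perk and the kinases Gcn2 (Eif2ak4), Pkr (Eif2ak2) and Hri (Eif2ak1) phosphorylate eIF2alpha, which slows translation in general and favours that of Atf4, a transcription factor that acts through a composite C/EBP-ATF element. This arm is called the integrated stress response and can be set off without ER stress, for instance by lack of amino acids, haem shortage or viral RNA.

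Library totals ran from 4626519 to 4895474 counts. Lcn2, an acute-phase gene that brain tissue raises in inflammation, had 4524 to 9635 counts in the extract libraries and 6 to 14 in the libraries labelled CLP, against 13246 to 14822 in those labelled sham, which goes against the labels, so groups are called here by their labels. Every direction, ratio and rank below is for the label CLP over the label sham, and each would turn round if those labels were exchanged. The 3 libraries labelled CLP plus extract stood apart in another way. Over 6302 genes with a mean of at least 20 counts, the squared distance of each extract library from the mean of the other 6, divided by its counting variance, had a median of 0.451 to 0.469, where counting error alone gives 0.455. Among the extract libraries themselves it was 0.321 to 0.355, less than counting error, against 0.765 to 1.01 among those labelled CLP and 0.743 to 1.00 among those labelled sham. In 99.3% to 99.5% of 3642 genes with a mean over 100 the extract count lay within the range of the other 6 libraries, while a CLP or sham library lay within the range of the other 5 in 59.0% to 76.7%. Of the 16065 genes at 0 in all 6 libraries, 0 had a count in an extract library, whereas 520 to 627 genes were counted in 1 of those 6 and at 0 in the other 5. How the extract libraries came to have these values was not tested. The median distance of an extract library from the average of the other 6 was thus close to that of counting error, and a place between the other groups is not read here as an effect of the extract. Single genes could still differ widely among the extract libraries, such as Lcn2 (4524 to 9635 counts), Phgdh (695 to 1279) and Pmaip1 (61 to 259). Because the median distance among the extract libraries was below counting error, they are treated as 1 sample, with no SD, and entered no reported test. The exception is an alternative fit of all 9 libraries.

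Of the 10 members, 8 had enough counts to be tested. Hspa5, which encodes BiP, the main ER Hsp70 chaperone, had 0 counts in each extract library and 0, 0 and 1 in the libraries labelled CLP, against 0, 0 and 0 in those labelled sham. Pdia4, a protein disulfide isomerase of the ER, had 1, 0 and 1 counts in the extract libraries and 1, 4 and 0 in the libraries labelled CLP, against 0, 3 and 0 in those labelled sham. Neither gene was measured well enough to be compared. The members split by the number of RefSeq transcripts in the table: 7 have 1 transcript and all were tested, while Hspa5 and Pdia4 have 2 each and Ddit3 has 4. Over the whole table, 43.7% of coding genes with 1 transcript reached a mean of 10 counts, and 22.4% of those with several did. BiP is known to be abundant in most tissues, and its level in these mice cannot be read from such counts. Chaperone results below rest on Hsp90b1, Calr and Pdia6.

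The 3 measured chaperones rose modestly under the CLP label. Hsp90b1, the ER member of the Hsp90 family (Grp94), had 6166, 5629 and 6290 counts in the libraries labelled CLP, against 4822, 5164 and 5249 in those labelled sham. The groups did not overlap, and the gene averaged 1265 ± 55.7 CPM under CLP against 1069 ± 19.996 CPM under sham (counts scaled to a common library total, mean ± SD, n = 3 each), a ratio of 1.17 (log2 fold 0.23 ± 0.04 SE, adjusted p = 2.47e-05 from the quasi-likelihood test of edgeR). Calr, which encodes calreticulin, a calcium-binding lectin chaperone of glycoproteins, had 6659, 5884 and 6372 counts in the libraries labelled CLP, against 4471, 5074 and 4815 in those labelled sham. Its lowest CLP count exceeded its highest sham count, and the ratio was 1.30 (1323 ± 75.3 CPM under CLP against 1007 ± 41.8 CPM under sham, log2 fold 0.38 ± 0.04, adjusted p = 7.17e-08 by edgeR). Pdia6, a disulfide isomerase that forms complexes with BiP and helps to limit Ire1 and Perk signalling, had 1931, 1744 and 1783 counts in the libraries labelled CLP, against 1188, 1307 and 1297 in those labelled sham. It had the largest fold of the 3 chaperones, a ratio of 1.42 (382 ± 22.0 CPM under CLP against 266 ± 6.98 CPM under sham, log2 fold 0.51 ± 0.05, adjusted p = 1.24e-08 by edgeR). A call was common in this comparison: 47.6% of 8213 tested genes differed between the groups labelled CLP and sham, where 23.7% of the tested genes were higher under CLP and 23.9% lower, and the groups did not overlap in 55.7% of them. The chaperone folds lay well inside the spread of all genes, with 66.4% of tested genes below Hsp90b1, 74.9% below Calr and 80.6% below Pdia6. Taken as sham over CLP, the ratios were 0.852, 0.767 and 0.702 for Hsp90b1, Calr and Pdia6. In bulk tissue, more RNA per cell and more cells of a type that is rich in a transcript cannot be told apart.

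Promoters of the measured chaperones are shown because they share the ER stress element (ERSE), the letters CCAAT, 9 free bases and CCACG, searched on both strands from 250 bases before to 50 after the RefSeq start. All 10 members matched an entry of the RefSeq promoter table (build GRCm38.p6). The ERSE was found in 4 of the 5 chaperone windows, those of Hspa5, Hsp90b1, Calr and Pdia6, in 0 of the 5 Atf4-Chop windows and in 0.119% of all 32851 windows in the table. Hsp90b1 held it at 2 places, from -212 to -194 and, on the opposite strand, from -107 to -89. The 250 bases before each start are printed 5′ to 3′ along the gene, with the ERSE in capitals; a match on the opposite strand reads as its reverse complement.
Hsp90b1, chr10:86705445-86705694, minus strand: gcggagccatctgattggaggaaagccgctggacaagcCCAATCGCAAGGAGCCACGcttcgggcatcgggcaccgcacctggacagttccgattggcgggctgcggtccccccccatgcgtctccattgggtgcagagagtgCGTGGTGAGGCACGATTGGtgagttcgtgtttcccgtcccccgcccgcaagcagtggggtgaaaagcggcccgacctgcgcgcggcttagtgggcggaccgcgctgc
Calr, chr8:84846932-84847181, minus strand: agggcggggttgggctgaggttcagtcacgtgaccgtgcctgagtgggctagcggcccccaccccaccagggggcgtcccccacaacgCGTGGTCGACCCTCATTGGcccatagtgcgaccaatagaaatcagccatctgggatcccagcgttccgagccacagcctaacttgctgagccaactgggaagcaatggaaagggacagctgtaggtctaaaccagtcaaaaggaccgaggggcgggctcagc
Pdia6, chr12:17266339-17266588, plus strand: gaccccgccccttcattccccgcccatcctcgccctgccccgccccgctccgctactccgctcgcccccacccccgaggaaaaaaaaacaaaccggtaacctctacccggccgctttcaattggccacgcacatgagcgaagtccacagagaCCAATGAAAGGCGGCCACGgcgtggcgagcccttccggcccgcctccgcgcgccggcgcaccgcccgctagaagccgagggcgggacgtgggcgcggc

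The Atf4-Chop members did not move as a block: Atf3, Trib3 and Sesn2 fell in the libraries labelled CLP, Ddit3 rose and Chac1 was not called. Atf3, a transcription factor gene induced by Atf4 and by many inflammatory and injury signals, had 20, 18 and 17 counts in the libraries labelled CLP, against 90, 98 and 53 in those labelled sham. All 3 CLP values were below the lowest sham value, which was that of sham replicate 3, and the ratio was 0.227 (3.85 ± 0.36 CPM under CLP against 17.0 ± 5.19 CPM under sham, log2 fold -2.14 ± 0.25, adjusted p = 2.32e-07 by edgeR). Trib3, a pseudokinase gene induced by Atf4 and Chop that dampens Akt and Atf4 activity, had 4, 0 and 3 counts in the libraries labelled CLP, against 25, 16 and 21 in those labelled sham. Its log2 fold was -3.10 ± 0.53 (0.487 ± 0.437 CPM under CLP against 4.37 ± 1.06 CPM under sham, adjusted p = 3.04e-05 by edgeR), and 1.51% of tested genes had a lower fold. The ratio of sham over CLP was 8.56. Trib3 reached the minimum of the low-count filter in 0 of the 3 libraries labelled CLP and 3 of 3 labelled sham, so it was tested only because it was high in one group, and its counts leave a wide error. Sesn2, a sestrin gene induced by Atf4, p53 and Nrf2 whose product restrains mTORC1, had 279, 300 and 299 counts in the libraries labelled CLP, against 466, 447 and 430 in those labelled sham. The groups did not overlap and each was narrow, with a ratio of 0.646 (61.4 ± 2.58 CPM under CLP against 94.4 ± 6.24 CPM under sham, log2 fold -0.63 ± 0.08, adjusted p = 1.31e-06 by edgeR).

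Ddit3, which encodes Chop, the transcription factor that links prolonged ER stress to cell death, had 99, 90 and 79 counts in the libraries labelled CLP, against 41, 36 and 46 in those labelled sham. The CLP counts were all above the sham counts, a ratio of 2.15 (18.8 ± 2.34 CPM under CLP against 8.64 ± 1.05 CPM under sham, log2 fold 1.11 ± 0.18, adjusted p = 2.17e-05 by edgeR), and 93.7% of tested genes had a lower fold. Taken as sham over CLP the ratio was 0.464. Its direction was opposite to that of Trib3, a gene known as a target of Chop. Trib3 was tested only through the libraries labelled sham, so its direction was set by the filter and nothing is drawn from the contrast. The count of Ddit3 needs care, because 98.7% of it came from 1 predicted RefSeq transcript of the gene's 4, while both curated transcripts had 0 counts in all 9 libraries. The gene also overlaps Mars1 and Mbd6 in the RefSeq table, and no source used here says whether reads were assigned by strand. Mars1 (log2 fold 0.32 ± 0.21, adjusted p = 0.208 by edgeR) and Mbd6 (-0.52 ± 0.43, adjusted p = 0.335) did not pass the test. Chac1, which encodes an enzyme that degrades glutathione and is a sensitive Atf4 target, had 55, 69 and 91 counts in the libraries labelled CLP, against 64, 61 and 61 in those labelled sham. The CLP values spread on both sides of the sham values, and the log2 fold was 0.19 ± 0.19 (15.0 ± 3.57 CPM under CLP against 13.1 ± 0.725 CPM under sham, adjusted p = 0.42 by edgeR). Without CLP replicate 3 it was 0.004 (adjusted p = 0.99), and without CLP replicate 1 it was 0.36 (adjusted p = 0.142).

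**Figure D1:**
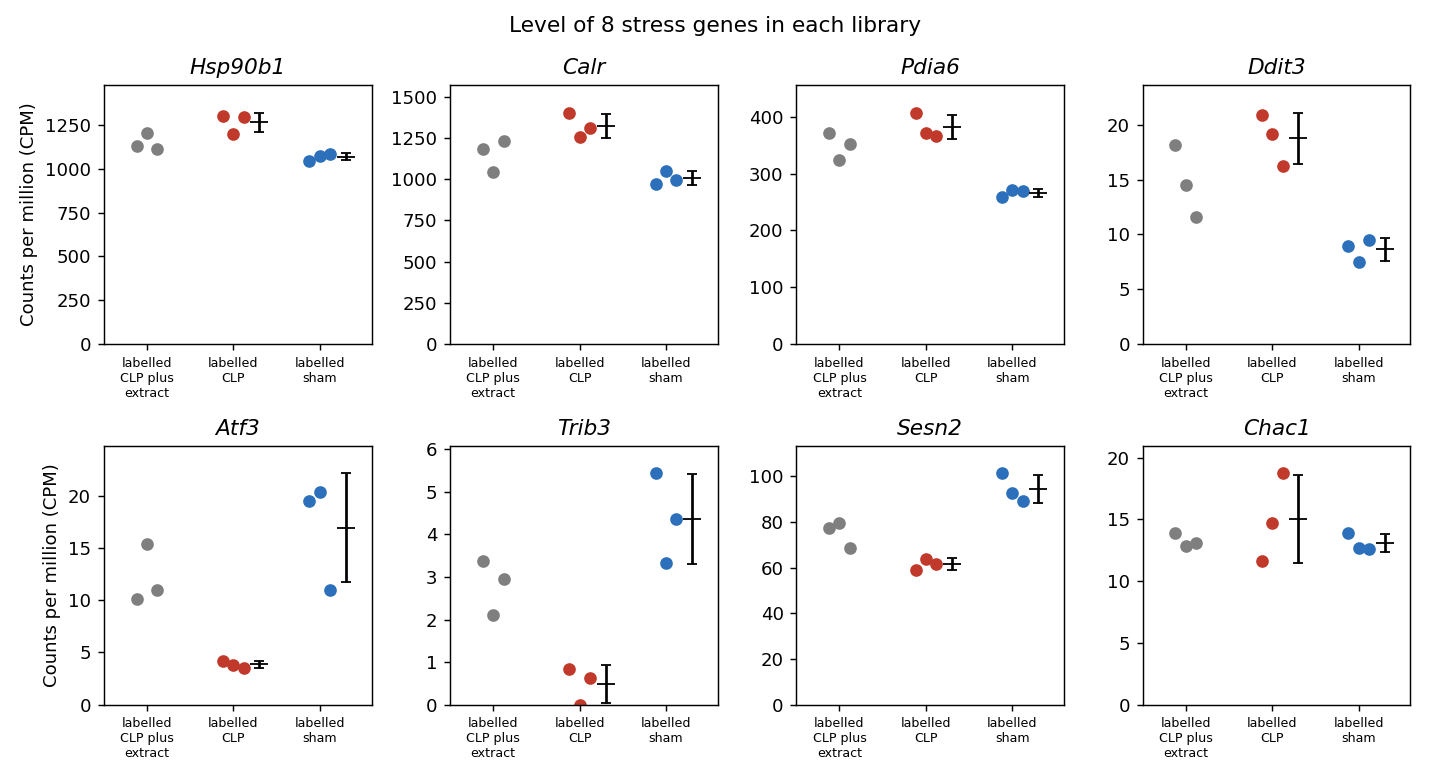
Level of the 8 tested members in CPM (vertical axes start at 0) in each library, with groups from left to right labelled CLP plus extract, CLP and sham; points are libraries and black bars are mean ± SD of 3 libraries, not drawn for the extract libraries. Hsp90b1, Calr, Pdia6 and Ddit3 are higher and Atf3, Trib3 and Sesn2 lower in the libraries labelled CLP than in those labelled sham, and Chac1 overlaps. Trib3 was tested only through the libraries labelled sham.

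Promoters of the Atf4-Chop members are shown for the C/EBP-ATF element, searched as TTNCATCA on both strands. It was found in 3 of these 5 windows, those of Atf3, Trib3 and Chac1, in 0 of the 5 chaperone windows and in 3.97% of all windows. The windows of Ddit3, Sesn2 and Pdia4 held 0 matches to any of the 5 motifs searched. A longer window could hold others. The remaining searches were the ERSE-II (ATTGG, 1 free base, CCACG; 0 members, 0.0365% of windows), the core TGACGTG of the UPR element (Hspa5 only, 2.01%) and the cyclic AMP element TGACGTCA (0 members, 1.79%). No match in a member's window overlapped another. Atf3 and Chac1, which both carry the element, had log2 folds of -2.14 and 0.19. The 250 bases before the start are printed for Atf3 and Chac1 and 30 bases after it for Trib3, whose match begins at position 15, with the element in capitals.
Atf3, chr1:191183334-191183583, minus strand: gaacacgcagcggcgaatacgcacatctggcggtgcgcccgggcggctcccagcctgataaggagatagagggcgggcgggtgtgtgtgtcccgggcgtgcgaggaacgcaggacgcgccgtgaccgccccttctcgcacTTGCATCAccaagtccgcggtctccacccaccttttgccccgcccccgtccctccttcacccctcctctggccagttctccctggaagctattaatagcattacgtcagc
Chac1, chr2:119350992-119351241, plus strand: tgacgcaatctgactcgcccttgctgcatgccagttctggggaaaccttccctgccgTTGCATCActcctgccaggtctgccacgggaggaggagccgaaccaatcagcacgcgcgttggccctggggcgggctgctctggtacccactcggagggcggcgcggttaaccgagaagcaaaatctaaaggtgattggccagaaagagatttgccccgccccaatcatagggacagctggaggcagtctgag
Trib3, chr2:152344028-152344057, minus strand: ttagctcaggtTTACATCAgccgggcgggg

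**Figure D2:**
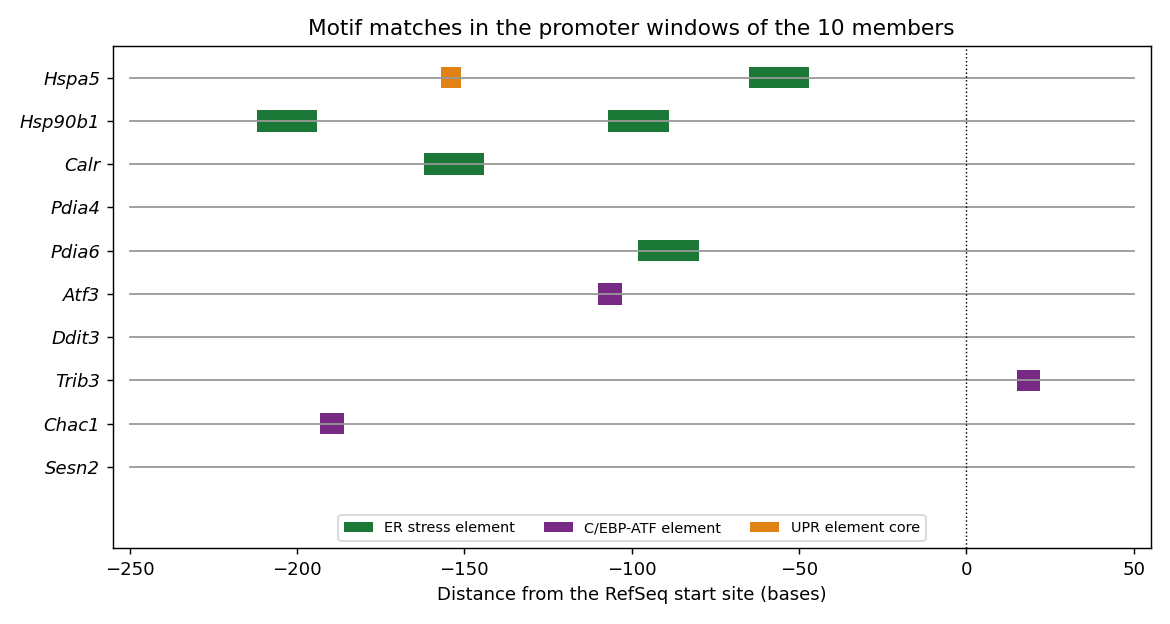
Motif matches in the promoter window of each member; the horizontal axis is the distance in bases from the RefSeq start site (dotted line), and coloured blocks are matches on either strand, drawn to scale. ER stress elements lie in the windows of Hspa5, Hsp90b1, Calr and Pdia6, and C/EBP-ATF elements in those of Atf3, Trib3 and Chac1.

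Outside the members, genes with these letters were called in both directions. Of 6 other tested genes with an ERSE, 1 rose and 1 fell under the CLP label (median log2 fold -0.03). Of 166 with TTNCATCA, 26.5% were higher and 25.3% lower (median 0.01). Among all 6244 tested genes outside the members with a promoter entry the shares were 23.9% and 24.2% (median 0.01).

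Set side by side, the 3 measured chaperones had log2 folds of 0.23 to 0.51 and the 5 Atf4-Chop members -3.10 to 1.11, while the median of all tested genes was 0.005. The mean log2 CPM of the 5 chaperones minus that of the 5 Atf4-Chop members was 2.22, 2.62 and 2.20 in the libraries labelled CLP, against 0.98, 1.499 and 1.27 in those labelled sham. The groups did not overlap on this scale (2.35 ± 0.24 under CLP against 1.25 ± 0.26 under sham, SD, n = 3 each), a difference of 1.10 that was 1.16 without the near-empty Hspa5 and Pdia4. Without Trib3, which was tested only through the sham libraries, the difference was 0.662, with 1.40 to 1.55 under CLP against 0.583 to 0.999 under sham. Without all 3 of these genes it was 0.72. Since the genes were chosen with earlier results known, no test was made of it. Among the Atf4-Chop members Ddit3 alone was called in the same direction as the chaperones.

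**Figure D3:**
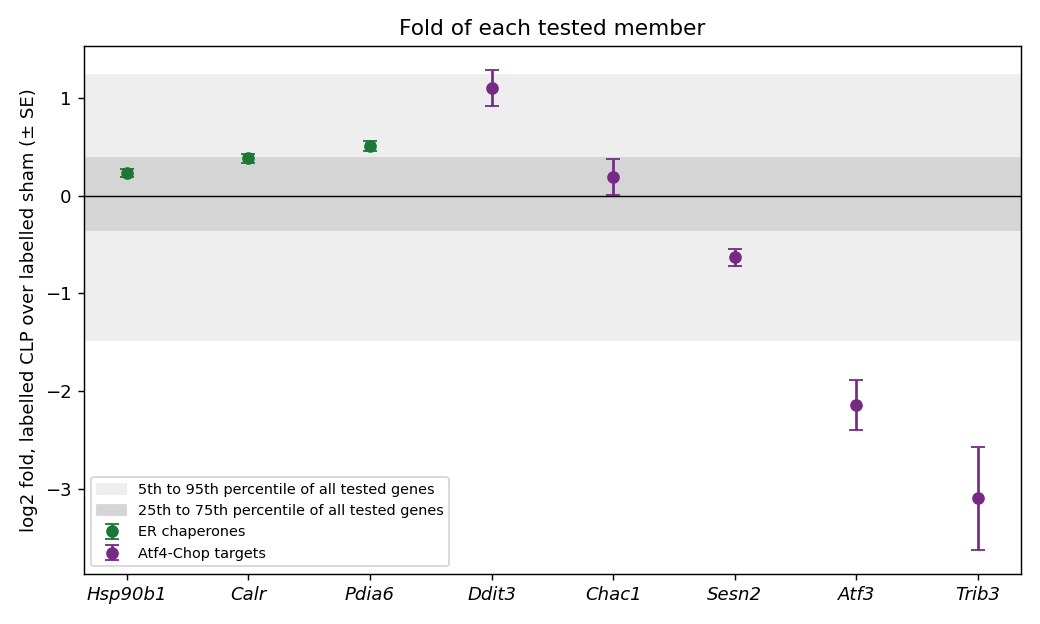
Log2 fold (labelled CLP over labelled sham, ± SE, vertical axis) of the 8 tested members; green points are ER chaperones and purple points Atf4-Chop members, over grey bands that give the 5th to 95th and 25th to 75th percentiles of all 8213 tested genes. Trib3 (-3.10) and Atf3 (-2.14) lie below the outer band, which ends at -1.48, and Pdia6 (0.51) lies above the inner band, which ends at 0.38. Trib3 was tested only through the libraries labelled sham.

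In the libraries labelled CLP plus extract, all 24 counts of the 8 tested members lay within the range of the other 6 libraries. Hsp90b1 had 5362, 5704 and 5289 counts there, Calr 5611, 4958 and 5855, and Pdia6 1761, 1538 and 1670. Atf3 had 48, 73 and 52 counts, Ddit3 86, 69 and 55, and Trib3 16, 10 and 14. Sesn2 had 367, 378 and 325 counts and Chac1 66, 61 and 62. On a scale where the sham mean is 0 and the CLP mean is 1, the extract mean was between 0.113 (Chac1) and 0.718 (Pdia6). The chaperone minus Atf4-Chop level was 1.46, 1.37 and 1.65, below each library labelled CLP (2.20 to 2.62) and overlapping those labelled sham (0.98 to 1.499). The overlap was absent without the near-empty Hspa5 and Pdia4. The extract libraries were then at 5.70, 5.68 and 5.88, between those labelled sham (5.20 to 5.52) and those labelled CLP (6.48 to 6.68). Across genes the positions were alike in kind: of 811 genes at least 2-fold apart between the libraries labelled CLP and sham, 99.1% had an extract mean between the other groups, at a median position of 0.508.

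The best-known sensors of the unfolded protein response, other than Ern1, had too few counts to compare. Xbp1 had 0 counts in all libraries, Atf6 0 to 3, Eif2ak3 (Perk) 0 to 2 and Mbtps1, a protease that cleaves Atf6, 2 to 12, and none was tested. Under the CLP label 1 of 7 tested sensors and related factors rose and 3 fell (median log2 fold -0.08). These are 14.3% and 42.9%, where 23.7% of all tested genes were higher and 23.9% lower. Atf6b, the close relative of Atf6, had 1449 to 1560 counts in the libraries labelled CLP, against 1062 to 1213 in those labelled sham (a log2 fold of 0.43 ± 0.05, adjusted p = 5.32e-07 by edgeR). Ern1 (Ire1) had 212 to 258 counts, against 300 to 310 in those labelled sham (-0.35 ± 0.10, adjusted p = 0.00587 by edgeR; 0.0557 without CLP replicate 3). The ER-bound factor genes Creb3l1 (-1.12 ± 0.19, adjusted p = 9.29e-05) and Creb3 (-0.27 ± 0.06, adjusted p = 0.000941) were lower too by edgeR. Mbtps2 (0.14 ± 0.07), Creb3l2 (0.19 ± 0.11) and Wfs1 (-0.08 ± 0.14) did not pass the test. Without CLP replicate 1 (Mbtps2 then passing) or CLP replicate 3 (Creb3l2 then passing), 2 were higher.

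Of 15 core genes of the integrated stress response 7 were tested. Atf4 itself had 1 to 5 counts per library, Atf5 5 to 10 and Cebpb 0, and of the eIF2alpha kinases Eif2ak4 had 0 and Eif2ak2 0 to 7, so none of these was tested. The eIF2B subunit genes Eif2b3 (0 to 2), Eif2b4 (5 to 9) and Eif2b5 (0 to 1 counts) were too low as well. Under the CLP label 0 of 7 tested core genes rose and 3 fell (median log2 fold -0.26). The shares were 0% and 42.9%, where 23.7% of all tested genes were higher and 23.9% lower. Ppp1r15a (Gadd34), which recruits the phosphatase that reverses eIF2alpha phosphorylation and is itself an Atf4-Chop target, had 270 to 278 counts in the libraries labelled CLP, against 499 to 505 in those labelled sham (-0.89 ± 0.08, adjusted p = 1.76e-09 by edgeR). Its constitutive counterpart Ppp1r15b (-0.26 ± 0.05, adjusted p = 0.000236) and Eif2b2, a subunit of the exchange factor eIF2B (-0.54 ± 0.07, adjusted p = 3.10e-06), were lower by edgeR. Eif2b1 (-0.35 ± 0.15), Eif2ak1 (0.30 ± 0.16), Eif2s1, which encodes eIF2alpha (0.09 ± 0.06), and Cebpg, an Atf4 partner (-0.01 ± 0.06), did not pass the test. Eif2b1 passed it without CLP replicate 3 (adjusted p = 0.0321 by edgeR) or sham replicate 3 (0.0384), and with no library left out by limma-voom (adjusted p = 0.0467).

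Further Atf4-Chop targets were mostly lower. Of 14 genes of cell death, growth arrest and translation control, 9 were tested, of which 7 fell and 0 rose under the CLP label (median log2 fold -1.19, where 23.9% of all tested genes were lower). Pmaip1 (Noxa), a pro-apoptotic Bcl2-family gene, had 23 to 33 counts in the libraries labelled CLP, against 182 to 299 in those labelled sham (-3.20 ± 0.21, adjusted p = 3.01e-09 by edgeR). Eif4ebp1, a translation repressor gene, had 15 to 26, against 64 to 93 in those labelled sham (-1.89 ± 0.23, adjusted p = 2.64e-07 by edgeR). The death receptor gene Tnfrsf10b (-1.73 ± 0.25) and the stress cofactor gene Nupr1 (-1.34 ± 0.15) were lower, as were Stc2 (-1.19 ± 0.21), Gadd45a (-1.15 ± 0.21) and the mTORC1 inhibitor gene Ddit4 (-0.86 ± 0.10). Several of these, among them Pmaip1, Gadd45a and Ddit4, are also known to respond to p53 or glucocorticoids. Bbc3 (-0.72) and Jdp2 (0.07) did not pass the test.

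Atf4 targets of amino acid supply were mixed. Of 32 genes 12 were tested, of which 3 rose and 4 fell under the CLP label (median log2 fold -0.12). Those shares are 25% and 33.3%, near the 23.7% and 23.9% of all tested genes. Slc6a9, a glycine transporter gene, passed the low-count filter only through the libraries labelled CLP. Phgdh, the first enzyme of serine synthesis, rose to 1221 to 1330 counts in the libraries labelled CLP, against 570 to 639 in those labelled sham (1.07 ± 0.06, adjusted p = 1.13e-13 by edgeR). Gpt2, a transaminase gene (0.74 ± 0.11), and Sars, a seryl-tRNA synthetase gene (0.72 ± 0.25), were also higher. The neutral amino acid transporter gene Slc1a4 (-0.64 ± 0.05, adjusted p = 4.71e-11 by edgeR), the cystine transporter gene Slc7a11 (-0.84 ± 0.24) and the tRNA synthetase genes Tars (-0.44 ± 0.06) and Gars (-0.33 ± 0.05) were lower. Sars lost its call without CLP replicate 2 (adjusted p = 0.126) and with DESeq2's Wald test (0.0772). Asns, a textbook Atf4 target, was not tested.

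Other ER folding genes did not rise as a list. Under the CLP label 1 of 17 tested genes rose and 6 fell (median log2 fold -0.03). The shares were 5.88% and 35.3%, where 23.7% of all tested genes were higher and 23.9% lower. The number that rose was 0 without CLP replicate 1 and 2 without CLP replicate 3 or sham replicate 3. The number that fell was 4 to 6 when 1 library was left out and 4 with DESeq2's Wald test. Creld2, an ER-stress-induced gene, had 224 to 319 counts in the libraries labelled CLP, against 182 to 204 in those labelled sham (0.43 ± 0.13, adjusted p = 0.00751 by edgeR; 0.0917 without CLP replicate 1). Serp1, which stabilises newly made membrane proteins, fell to 970 to 1082 counts, against 2044 to 2139 in those labelled sham (-1.04 ± 0.05, adjusted p = 4.99e-14 by edgeR). The disulfide isomerase gene P4hb (-0.36 ± 0.05), Tmx1 (-0.31 ± 0.06) and Dnajc3, which encodes the BiP co-chaperone p58IPK (-0.29 ± 0.06), were lower. Pdia3, the isomerase that works with calreticulin, had a log2 fold of -0.03 ± 0.04 and Manf, a secreted ER stress protein gene, one of -0.005 ± 0.07, and neither passed the test.

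Of 10 tested genes of ER-associated degradation 1 was higher and 5 lower (median log2 fold -0.08). The shares were 10% and 50%, where 23.7% of all tested genes were higher and 23.9% lower. Edem1, which hands misfolded glycoproteins to degradation, was higher (0.45 ± 0.14, adjusted p = 0.0089 by edgeR). Those lower included the ubiquitin-conjugating enzyme gene Ube2g2 (-0.39 ± 0.05), the channel gene Derl1 (-0.19 ± 0.05), Erlec1 (-0.25 ± 0.08) and Vcp (-0.12 ± 0.04). The number lower was 3 without CLP replicate 1, CLP replicate 2 or sham replicate 2. Vcp lost its call without CLP replicate 1 (adjusted p = 0.0587 by edgeR) or CLP replicate 2 (0.0572), and Erlec1 without CLP replicate 1 (0.0651) or sham replicate 2 (0.0901). With its highest-count transcript alone Erlec1 had a log2 fold of 0.21 (adjusted p = 0.0519 by edgeR). Of 13 tested genes of ER translocation and transport 2 were higher and 4 lower (15.4% and 30.8%, median 0.02). Spcs3, a signal peptidase subunit gene (0.24 ± 0.05), and the coat gene Sec24d (0.66 ± 0.17) were higher, and the translocon-associated gene Ssr3 (-0.65 ± 0.04), the KDEL receptor gene Kdelr3 (-1.27 ± 0.35), Ssr1 (-0.26 ± 0.10) and Sec61a1 (-0.14 ± 0.05) were lower. The number lower was 2 without CLP replicate 1, CLP replicate 2 or sham replicate 2, and with DESeq2's Wald test. Sec61a1 kept its call without sham replicate 3 and lost it without any other library (adjusted p 0.0671 to 0.103 by edgeR), and Ssr1 lost its call without CLP replicate 1, CLP replicate 2, sham replicate 2 or sham replicate 3 (0.0718 to 0.129). Of the members' relatives, a list that shares P4hb, Pdia3 and some others with the lists above, 9 were tested, with 0 higher and 4 lower. The lower ones were the cytosolic Hsp90 gene Hsp90ab1 (-0.27 ± 0.03), the mitochondrial Hsp70 gene Hspa9 (-0.41 ± 0.04) and Trib1 (-1.11 ± 0.14). P4hb, already counted among the lower ER folding genes, was the other. As shares of the 9 tested relatives, 0% were higher and 44.4% lower. Without CLP replicate 1, 1 relative was higher.

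**Figure D4:**
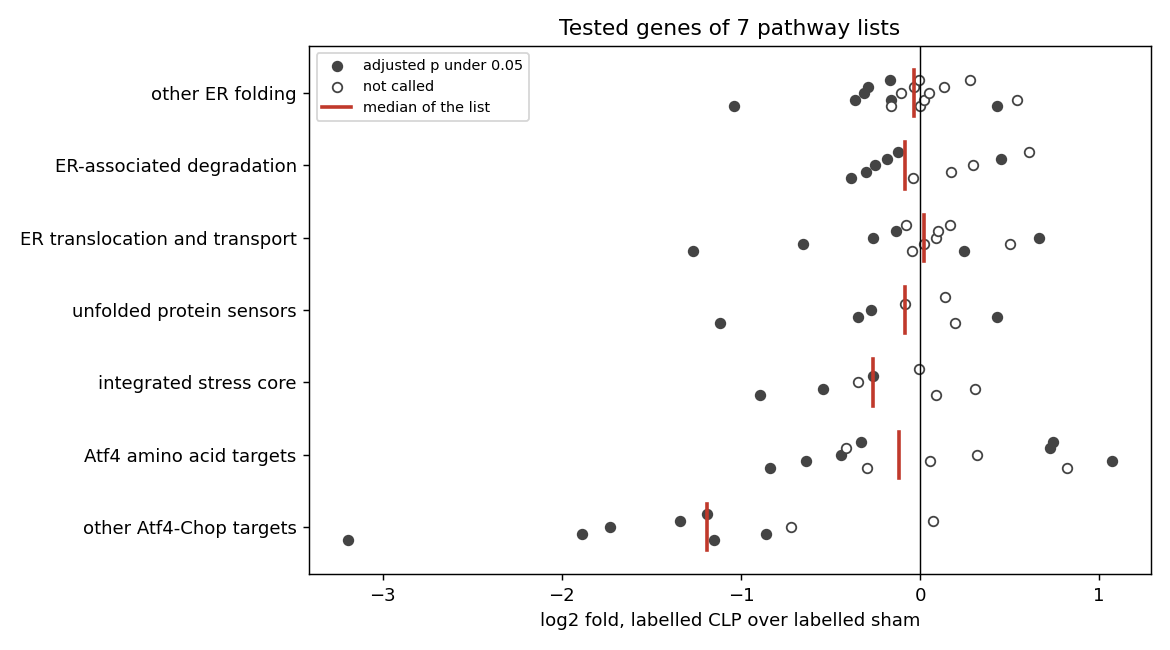
Log2 fold (labelled CLP over labelled sham, horizontal axis) of every tested gene of 7 pathway lists, none of them a member; filled points passed an adjusted p under 0.05, open points did not, and red lines are list medians. The list of other Atf4-Chop targets is centred at -1.19, while the medians of the other 6 lists lie between -0.26 and 0.02.

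Across these 7 lists, 75 of 142 genes were tested, of which 8 rose, 32 fell and 35 were not called (median log2 fold -0.10). Over all 8213 tested genes, 23.7% were higher and 23.9% lower. Of the 67 genes that were not tested, 66 have several RefSeq transcripts and 1 has a single one.

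Some marker lists moved with the groups. The summed levels of the choroid plexus, meningeal, B and plasma cell and immediate-early lists overlapped between the labels CLP and sham. What part the markers had in the members' folds was not tested. CPM in this paragraph are sums over a whole list, except where a single gene is named with its mean CPM. Of all tested genes, 23.7% were higher and 23.9% lower. Of the hippocampal neuron list 8 of 12 genes were tested (2 higher, Slc17a7 and Neurod6, and 1 lower, Neurod2), and Spink8 was at 0. Its summed level was 8682 to 8972 CPM in the libraries labelled CLP, against 7939 to 8097 in those labelled sham. Most of that sum was Slc17a7, with a mean of 6324 CPM under CLP against 5624 CPM under sham. All 6 tested microglial genes of 12 were higher (770 to 834 CPM under CLP against 439 to 570 CPM under sham, P2ry12 and Itgam at 0). Among them Siglech passed the low-count filter only through the libraries labelled CLP. The 12 neutrophil genes had 4.73 to 6.19 CPM under CLP against 50.6 to 74.8 CPM under sham, with S100a9, Ly6g, Csf3r and Cxcr2 at 0. Only S100a8 and Ngp were tested. Both were lower but passed the filter only through the libraries labelled sham, so that they had to differ. S100a8 (mean 35.8 CPM) and Ngp (14.0 CPM) also made up most of the neutrophil sum under sham, so nothing is drawn from that sum. Of 6 tested choroid plexus genes 1 was higher (766 to 1531 CPM under CLP against 564 to 887 CPM under sham, Prlr and Slc4a5 at 0). Of 4 tested endothelial genes 3 were higher and 1 lower (433 to 458 CPM under CLP against 299 to 341 CPM under sham, Pecam1 and Emcn at 0). The endothelial genes higher were Itm2a (mean 191 CPM under CLP against 40.7 CPM under sham), Flt1 (168 against 110 CPM) and Kdr. Cldn5 was lower (75.9 against 157 CPM). Astrocyte genes had 3 higher and 4 lower of 8 (8858 to 9068 CPM under CLP against 8002 to 8554 CPM under sham, Slc4a4 at 0). Most of that sum was Glul (mean 5227 CPM under CLP against 4599 CPM under sham). Glul, Gja1 and S100b were higher, and Gfap, Aqp4, Slc1a2 and Slc1a3 lower. Of the astrocyte genes, Aqp4 was tested only through the libraries labelled sham. Meningeal genes had 4 higher and 2 lower of 11 (290 to 536 CPM under CLP against 330 to 360.2 CPM under sham, 0 of them at 0). Of B and plasma cell genes 0 were tested (2.47 to 5.69 CPM under CLP against 3.32 to 5.65 CPM under sham, Cd79b among those at 0). Immediate-early genes, a list that leaves out Atf3, had 4 higher and 5 lower of 11 tested (1744 to 1984 CPM under CLP against 1644 to 1917 CPM under sham, Arc at 0).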

How the data were processed

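The deposited table gives whole-number counts per RefSeq transcript for 9 hippocampus libraries. Per the labels' protocols, total RNA was freed of ribosomal RNA before library preparation. Fastp and Salmon are named in the submitters' processing notes. Their versions, settings and index, and the build, are given by no source used here. All 120312 transcripts were matched by accession to the RefSeq gene table of GRCm38.p6, used for names and overlaps, and summed to 38911 genes. Salmon can split reads between transcripts, so counts of genes with several transcripts, or that overlap others, are uncertain.

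The 3 libraries labelled CLP and 3 labelled sham were fitted with edgeR's quasi-likelihood test (robust, filterByExpr, trimmed mean of M values), with p-values adjusted by Benjamini-Hochberg over 8213 genes and called under 0.05. SE was taken as the size of the log2 fold over the root of F. CPM are scaled over all 9 libraries. Levels per branch use log2 CPM with a prior count of 2. Steps were tested on simulated data. Members, lists and alternatives were chosen with earlier results of these data known. Named were all members, the tested sensors and core genes, and up to 4 called genes with the smallest p of each other list. Creld2, Pdia3, Manf, Asns, Bbc3, Jdp2, Lcn2, Mars1, Mbd6, Gpt2, Sars, Slc7a11, Stc2, Gadd45a, Ddit4, Erlec1, Ssr1 and Sec61a1 were named after values were seen. Protein sequences were not used here, and some list genes are not reported here by name. Labels give no batch. Replicate numbers did not pair the libraries. Software was Python 3.11.15 and R 4.3.3 with DESeq2 1.42.0, edgeR 4.0.16 and limma 3.58.1.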

Additional observations from a re-analysis of the deposited data

How the results depend on the processing

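All 119 alternative values of the 8 tested members kept the direction and the side of the threshold of the reported fit. Of these, 15 are of Trib3, which was tested only through the libraries labelled sham, so nothing is drawn from those 15. Alternatives were DESeq2 size factors, DESeq2's Wald test, limma-voom, no filter, 1 CPM in 3 libraries, all 9 libraries and replicate number as a block. Others were the highest-count transcript, genes with 1 RefSeq transcript (chosen after seeing the data, without Ddit3) and each library left out. Leaving out a library gave log2 folds of 0.22 to 0.28 for Hsp90b1, 0.35 to 0.43 for Calr, 0.47 to 0.54 for Pdia6, -2.38 to -1.99 for Atf3, 1.00 to 1.21 for Ddit3, -3.69 to -2.54 for Trib3, -0.68 to -0.58 for Sesn2 and 0.004 to 0.36 for Chac1. The branch difference was 0.963 to 1.22 without 1 library and 1.43 with a prior count of 0.5, which widens folds of low counts. It was 0.662 without Trib3 and 0.72 without Trib3, Hspa5 and Pdia4, both chosen after seeing the data.

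Genes called in all numbered 3543 to 3932 without 1 library and 2565 of 4776 tested among genes with 1 RefSeq transcript. In that last set, where fewer genes were tested, sensors had 2 higher, folding genes 2 higher, degradation genes 0 higher and 3 lower, translocation genes 1 higher and 2 lower, amino acid targets 1 higher and relatives 1 higher. Relatives had 1 higher with limma-voom, with no filter and with all 9 libraries, and translocation genes 2 lower with DESeq2's Wald test. Without 1 library the numbers ran from 1 to 2 for higher sensors, 0 to 2 for higher folding genes and 4 to 6 for lower folding genes. They ran from 3 to 5 for lower degradation genes, 2 to 3 for lower translocation genes and 0 to 1 for higher relatives. The causes were not tested.

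Of 739 values of 50 other genes, 680 kept direction and call, 45 lost and 6 gained a call and 8 changed sign. The sign changes were Wfs1 (-0.08; from -0.15 to 0.030 without 1 library, above 0 without CLP replicate 2 or sham replicate 2), Cebpg (0.0036 with all 9 libraries, 0.021 among genes with 1 transcript, and -0.0398 to 0.017 without 1 library, above 0 without CLP replicate 1, CLP replicate 2 or sham replicate 1) and Erlec1 (0.21 with its highest-count transcript only). Replicate numbers share only a number: deviations correlated at 0.0265, -0.013 and 0.0227 for equal numbers, with CLP replicate 2 not best matched to its own number, and with the replicate block 3892 genes were called against 3912. Genes with few counts were removed by the low-count filter, and no difference in them is reported.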
